A study of Mus musculus with 6 samples.

Results

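Interferon response and nucleic acid sensing genes were followed in mouse bone marrow progenitor cultures that either lacked or kept miR-155. The list was a hand-made set of 43 genes of known interferon or sensing function, drawn up with earlier results of these data known. A gene was measured here when the platform annotation gave it a row of its own, which held for 34 of the 43 genes among 14860 genes tested, and the row with the highest mean stood for a gene with several. Ifi204, Ifit3, Oas1a, Oas3 and Eif2ak2 had only rows shared with other genes, and no row carried the name Isg15, Usp18, Ifi44 or Xaf1, so these 9 genes have no value here. Tmem173, which encodes STING, was read under its current symbol Sting1.

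Cells detect foreign or misplaced nucleic acid with a small set of proteins. Ddx58 (RIG-I) and Ifih1 (MDA5) bind RNA in the cytosol and signal through Mavs, while STING relays the signal from cytosolic DNA. Both routes switch on type I interferon genes through IRF factors, and secreted interferon then binds the receptor made by Ifnar1 and Ifnar2. The receptor activates a complex that contains STAT2 and IRF9 and binds the interferon-stimulated response element in the promoters of antiviral effector genes.

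The study compared 3 arrays from miR-155 knockout cells with 3 arrays from wild-type cells. Marrow of female C57Bl/6 mice aged 12 weeks and given 5-FU, which kills dividing marrow cells, supplied both groups. Every culture, knockout or wild type, had been transduced with retroviral (MSCV) Hoxa9 and Meis1 constructs and was kept in DMEM with 15% FCS and the cytokines IL3, SCF and IL6. The wild-type titles repeat one number, so no array was paired with another, and because the labels name no animals or cultures the p-values measure only the spread between these arrays. The labels do not describe the knockout allele, and no row was named for the deleted microRNA, so its own level was not used to check the genotype. The deleted microRNA is shown with its seed (bases 2 to 8) in capitals, from RefSeq (GRCm38.p6, chr16:84714143-84714165, plus strand).
mmu-miR-155-5p: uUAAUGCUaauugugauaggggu

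The values are log2 expression levels, so a difference of 1 would be 2-fold. Array medians ran from 6.55 on knockout 3 to 6.66 on wild type 2. Of 11 progenitor markers, all 11 lay above 5.98, the 95th percentile of 718 olfactory receptor genes, which serves here as a background level. The first principal component over all genes held 37.2% of the variance and set knockout 1, knockout 2 and wild type 2 apart from knockout 3, wild type 1 and wild type 3, so it did not follow genotype. The second held 23.7% and had all 3 knockout arrays on one side of 0 and all 3 wild-type arrays on the other, with knockout 3 the farthest out. With 3 arrays a side, the standard error of a difference was typically 0.10 (the median over all genes).

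The loss of miR-155 was not accompanied by a change in any measured interferon or sensing gene that passed the test. Of 34 genes, 0 passed limma at an adjusted p under 0.05, in a comparison in which 0.0269% of all genes were called lower and 0% higher. At an unadjusted p under 0.05, 5 genes (14.7%) were lower in the knockout and 0 were higher, where all genes gave 5.44% lower and 1.78% higher. The 5 were the RNA sensor Ddx58, the Z-form nucleic acid sensor Zbp1, and the effectors Oasl2, Rsad2 and Isg20. The median difference of the 34 genes, knockout minus wild type, was −0.06, against −0.03 for all genes. In 24 genes the difference was below 0 (70.6%, against 61% of all genes) and in 10 it was above. All 3 knockout arrays lay below all 3 wild-type arrays in 6 genes (17.6%, against 10.4% of all genes), and the opposite held in 0 (2.88% of all genes).

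The intervals bound the differences of the genes whose mean lay above background. In 26 of these 28 genes the 95% interval of the difference lay inside 1.5-fold in either direction (0.58 on the log2 scale). The intervals of Ddx58 (−0.60 to −0.13) and Zbp1 (−0.75 to −0.15) reached past it. For the 6 genes not above background no such bound is read, and the widest of their intervals were those of Ifi203 (−0.27 to 1.30) and Ifit1 (−0.84 to 1.22). These intervals are per gene and carry no adjustment for the number of genes.

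**Figure D1:**
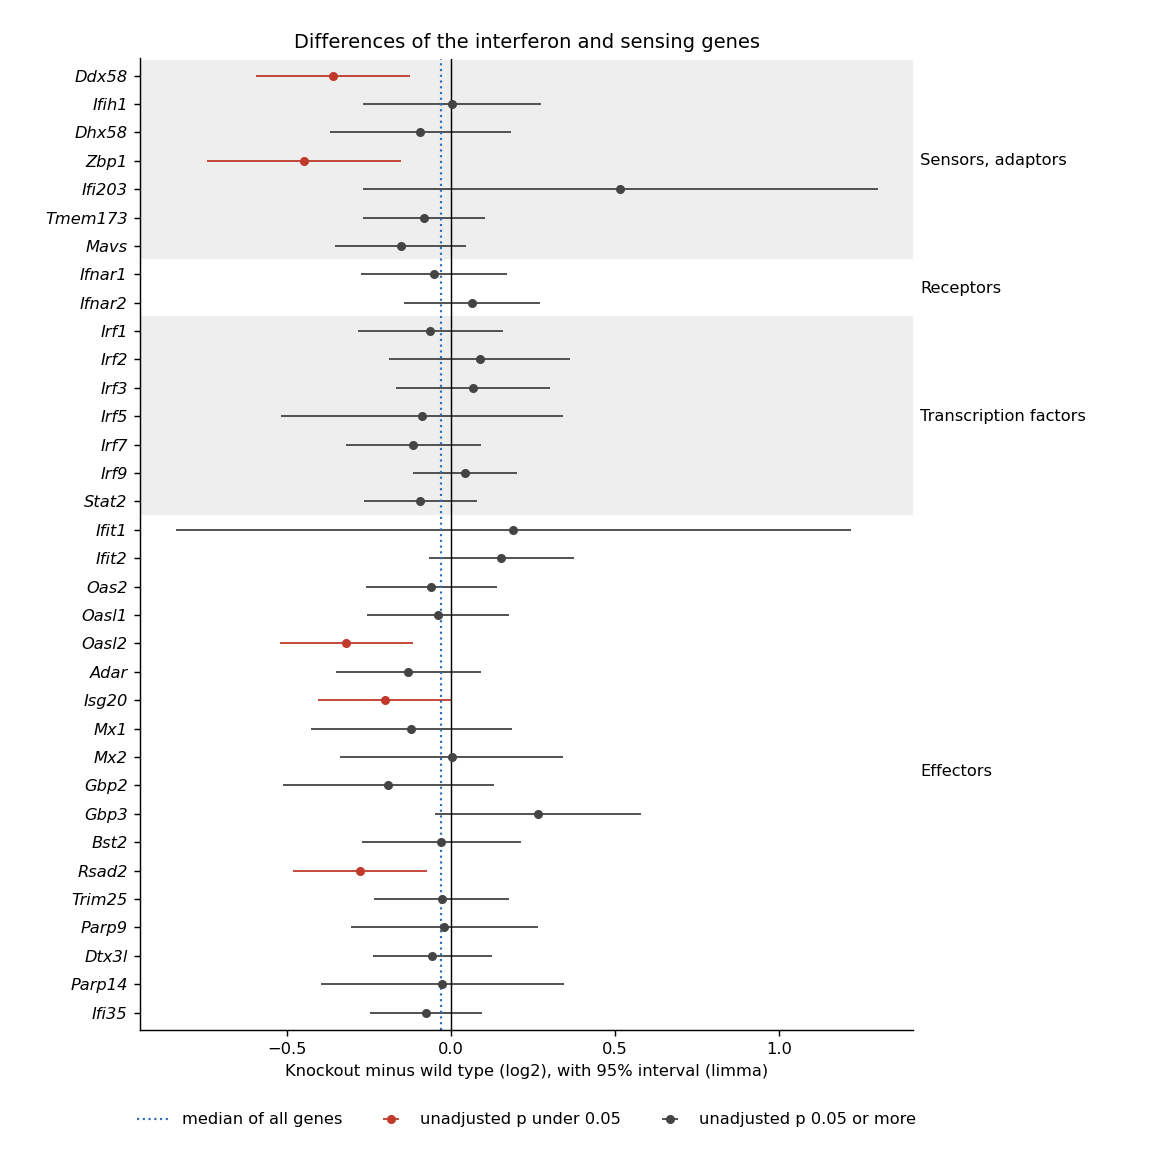
Knockout minus wild-type difference of each measured gene (x axis, log2) with its 95% interval from limma, grouped by role. Red marks the 5 genes at an unadjusted p under 0.05, all below 0, and the dotted line is the median of all genes (−0.03).

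Among sensors and adaptors, 7 of 8 listed genes were measured, with a median difference of −0.09, and 5 of the 7 lay below 0 (71.4%, against 61% of all genes). None passed the adjusted test, and 2, Ddx58 and Zbp1, were lower at an unadjusted p under 0.05 (28.6%, against 5.44% of all genes). Ddx58 encodes RIG-I, a helicase that recognises RNA with a triphosphate end. Its log2 level was 8.26, 8.08 and 8.003 in the knockout and 8.34, 8.56 and 8.53 in the wild type. The standard error of a difference is given as SE. The groups did not overlap, and the closest pair was knockout 1 and wild type 1. The difference was −0.36 (SE 0.10; limma, adjusted p = 0.486). Zbp1, a sensor of left-handed nucleic acid that can trigger necroptosis, stood at 7.07, 7.02 and 6.68 in the knockout and 7.23, 7.38 and 7.52 in the wild type. The groups again did not overlap, and knockout 3 was the lowest. The difference was −0.45 (SE 0.13; limma, adjusted p = 0.486), the most negative of the 34.

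The sister helicase Ifih1, which encodes MDA5 and recognises long double-stranded RNA, had overlapping groups. Its log2 level was 8.50, 8.32 and 8.24 in the knockout and 8.18, 8.54 and 8.34 in the wild type. The knockout values lay within the wild-type range, with knockout 1 and wild type 2 on top and knockout 3 and wild type 1 at the bottom. The knockout differed by 0.002 (SE 0.12; limma, adjusted p = 0.999). Dhx58, the third helicase of the family, which encodes the regulator LGP2, differed by −0.09 (SE 0.12). Ifi203, a nuclear DNA-binding protein of the PYHIN family, differed by 0.52 (SE 0.33). Its mean over the 6 arrays lay below the olfactory receptor level, and its wild-type values spread from 4.96 to 6.26. The PYHIN genes are close copies of one another, so this row may read more than 1 of them.

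The adaptors that carry the sensors' signal were measured well above background. Mavs, the mitochondrial adaptor of RIG-I and MDA5, had log2 levels of 8.79, 8.96 and 8.85 in the knockout and 9.13, 8.96 and 8.98 in the wild type. The groups overlapped at a single pair, knockout 2 and wild type 2. The difference was −0.15 (SE 0.09; limma, adjusted p = 0.77). Tmem173, the adaptor of cytosolic DNA sensing, stood at 10.03, 10.18 and 10.06 in the knockout and 10.24, 10.18 and 10.09 in the wild type. The ranges overlapped, and the difference was −0.08 (SE 0.08; limma, adjusted p = 0.882).

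The type I interferon receptor was present in both groups at overlapping levels. Ifnar1, the chain that binds TYK2, had log2 levels of 9.37, 9.29 and 9.08 in the knockout and 9.27, 9.37 and 9.25 in the wild type. Ifnar2, the high-affinity chain, stood at 10.30, 10.34 and 10.12 in the knockout and 10.18, 10.27 and 10.12 in the wild type. Knockout 3 gave the lowest Ifnar1 value, and knockout 3 and wild type 3 shared the lowest Ifnar2 value to 2 decimals. Ifnar1 differed by −0.05 (SE 0.09; limma, adjusted p = 0.942) and Ifnar2 by 0.06 (SE 0.09; limma, adjusted p = 0.92).

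All 7 transcription factors were measured, with differences from −0.11 to 0.09 and a median of −0.06. This median was 0.06 when knockout 3 was left out and to 0.01 when wild type 2 was. Irf7, the factor that amplifies interferon production and is itself induced by interferon, had log2 levels of 5.97, 6.14 and 6.07 in the knockout and 6.22, 6.05 and 6.26 in the wild type. Its mean lay just above the olfactory receptor level, and the difference was −0.11 (SE 0.09; limma, adjusted p = 0.846). Stat2, a subunit of the factor that binds the response element, stood at 8.39, 8.35 and 8.38 in the knockout and 8.41, 8.56 and 8.44 in the wild type. The groups did not overlap and were 0.01 apart at the closest pair before rounding. The difference was −0.09 (SE 0.07; limma, adjusted p = 0.848). Irf9, which gives that factor its DNA contact, stood at 7.90, 7.85 and 7.82 in the knockout and 7.85, 7.80 and 7.81 in the wild type. The ranges overlapped, and the difference was 0.04 (SE 0.07; limma, adjusted p = 0.932).

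The remaining 4 IRF genes had overlapping groups. Irf1, an activator induced by interferon gamma, differed by −0.06 and Irf2, its antagonist on the same sites, by 0.09. Irf3, which carries the first wave of signalling from Mavs and STING, differed by 0.07. Irf5, a factor of Toll-like receptor signalling, differed by −0.09, with knockout values from 7.40 on knockout 3 to 8.17 on knockout 2. The standard errors of these 4 were 0.09, 0.12, 0.10 and 0.18, and each difference was smaller than its own error.

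**Figure D2:**
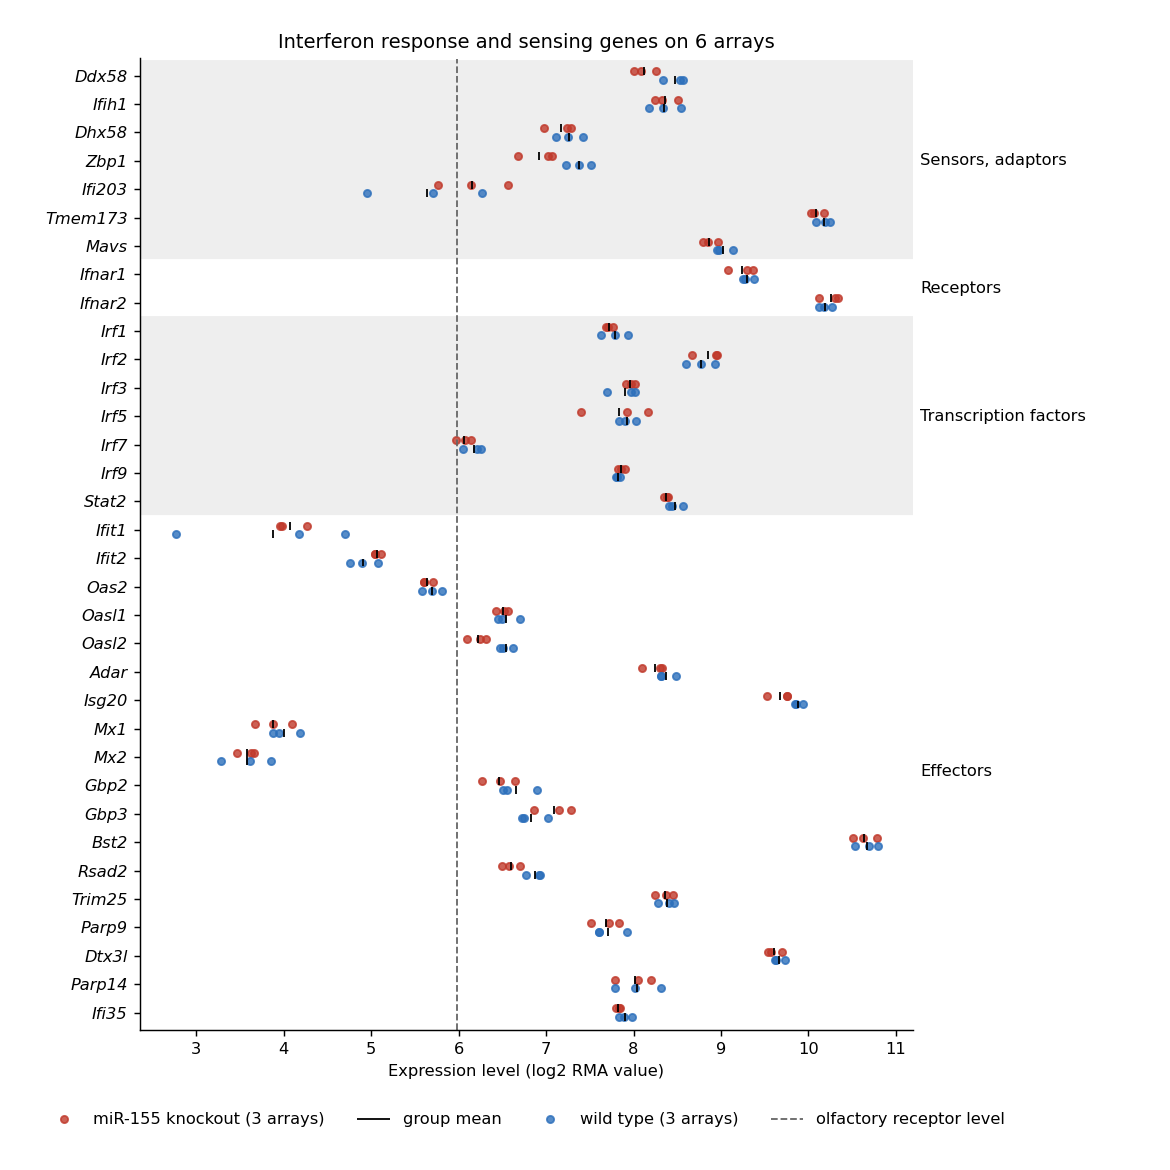
Log2 expression level (x axis) of the 34 measured genes on each array, knockout in red and wild type in blue, with a tick at each group mean and the olfactory receptor level of 5.98 as a dashed line. The 3 points of each group overlap in most genes; Ifit1, Ifit2, Oas2, Mx1, Mx2 and Ifi203 have 6-array means left of the dashed line.

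Of 26 listed effectors, 18 were measured, with a median difference of −0.05 and 14 below 0 (77.8%, against 61% of all genes). Without wild type 1 the median was −0.105. None passed the adjusted test, and 3 of 18 were lower at an unadjusted p under 0.05 (16.7%, against 5.44% of all genes). Several genes that respond strongly to interferon in most cells were not above background in either genotype. Ifit1, which binds RNA lacking a host cap mark, had log2 levels of 3.98, 3.96 and 4.27 in the knockout and 4.17, 2.76 and 4.70 in the wild type. Both groups lay below the olfactory receptor level of 5.98, and the wild-type values were spread widely around the knockout values. The difference was 0.19 (SE 0.44; limma, adjusted p = 0.95). Mx1, a GTPase that blocks influenza virus and is disrupted in C57BL/6 mice, stood at 3.67, 3.88 and 4.09 in the knockout and 3.88, 4.19 and 3.94 in the wild type. It too was below that level on every array, and the difference was −0.12 (SE 0.13; limma, adjusted p = 0.9). Ifit2, Oas2 and Mx2 also had means below it, with differences of 0.15, −0.06 and 0.00104.

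Promoter windows of 250 bases before to 50 after the annotated start (RefSeq, GRCm38.p6) were searched on both strands for GAAANNGAA, a core of the interferon-stimulated response element. It occurred in 18 of the 33 listed genes that had a window, 54.5%, against 9.76% of 27025 genes in that table. The 4 stretches are shown side by side for contrast. Rsad2 was lower at an unadjusted p and holds the core. Bst2, a bright gene with overlapping groups, and Ifit1, a gene below background, hold it as well. Oasl2 was lower at an unadjusted p and does not hold it. Each stretch is the 150 bases before the start, 5′ to 3′ on the gene's strand. Matches to the core or its reverse complement TTCNNTTTC are in capitals. The stretches lie at chr12:26456453-26456602 (minus strand), chr8:71537473-71537622 (minus), chr19:34640739-34640888 (plus) and chr5:114896784-114896933 (plus). Capitals that run on mark matches that overlap.
Rsad2: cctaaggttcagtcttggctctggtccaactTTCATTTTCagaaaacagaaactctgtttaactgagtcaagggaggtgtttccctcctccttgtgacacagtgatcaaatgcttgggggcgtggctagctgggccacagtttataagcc
Bst2: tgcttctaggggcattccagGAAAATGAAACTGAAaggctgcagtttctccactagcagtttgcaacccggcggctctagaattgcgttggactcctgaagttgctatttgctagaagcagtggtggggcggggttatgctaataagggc
Ifit1: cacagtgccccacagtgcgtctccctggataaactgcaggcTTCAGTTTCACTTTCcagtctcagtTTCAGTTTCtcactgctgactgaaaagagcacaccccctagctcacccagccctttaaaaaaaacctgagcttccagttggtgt
Oasl2: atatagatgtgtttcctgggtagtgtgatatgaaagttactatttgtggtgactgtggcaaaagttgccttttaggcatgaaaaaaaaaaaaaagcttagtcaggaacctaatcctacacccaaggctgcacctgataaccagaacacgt

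The 12 measured genes with the first core had a median difference of −0.03 and the 14 with a window but no match −0.06. Each set held 2 genes lower at an unadjusted p under 0.05, a p at which 5.44% of all genes were lower. Zbp1, the other listed gene lower at that p, had no window and is in neither set. With AAANNGAAA in place of the first core the medians were −0.04 in 12 genes with it and −0.06 in 14 without. Of these, 3 and 1 genes were lower at that p. With GAAANGAA they were −0.11 in 4 genes and −0.04 in 22, with 1 and 3 lower, so the order of the medians turned with the letters searched. A second core, TTCNNNGAA of the gamma-activated site, occurred in 11 of 33 listed genes (33.3%, against 9.55% of all genes). A match is a match of letters and shows no bound factor, and the absence of one in Oasl2 covers this window alone.

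**Figure D3:**
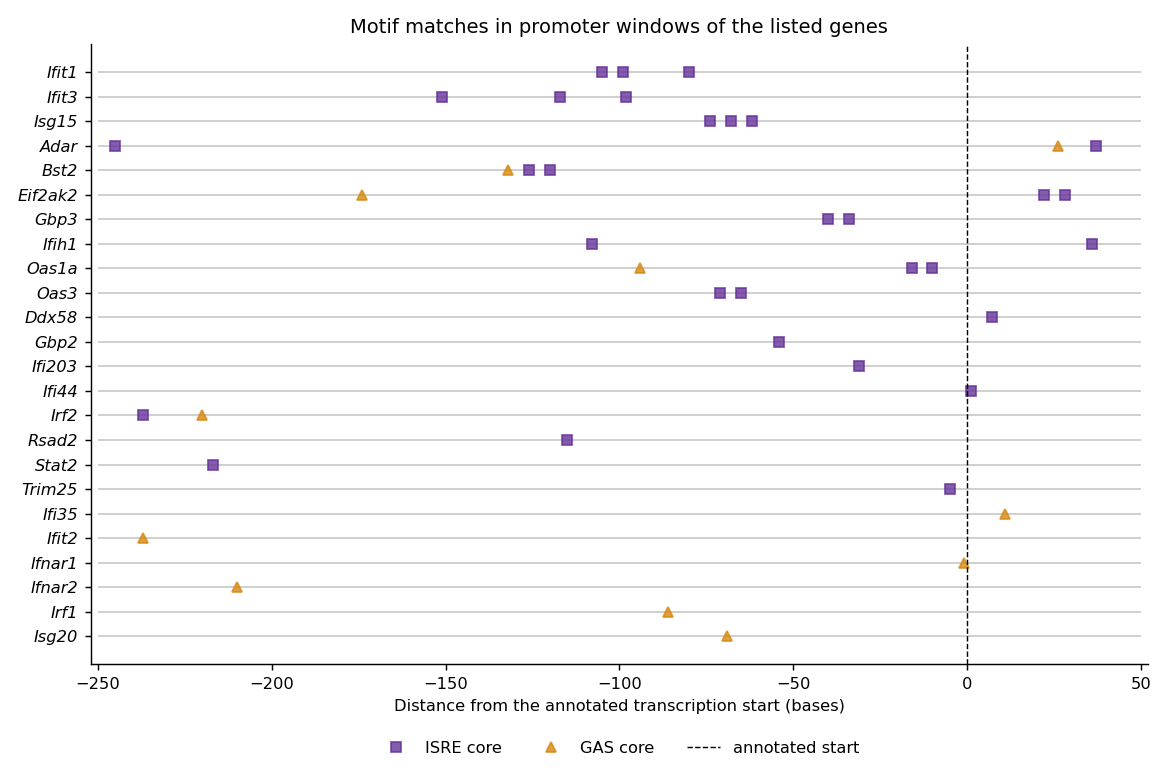
Positions of both cores relative to the annotated start (x axis, bases) in the promoter windows of the listed genes that hold at least 1 match, pooled over a gene's windows. Squares mark the interferon-stimulated response element core (ISRE core), found in 18 of 33 genes, and triangles the gamma-activated site core (GAS core), found in 11.

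Rsad2, Oasl2 and Isg20 were the effectors with a lower value at an unadjusted p. Rsad2 encodes viperin, a radical enzyme that makes a chain-terminating nucleotide. Its log2 level was 6.71, 6.50 and 6.58 in the knockout and 6.92, 6.93 and 6.77 in the wild type. All knockout arrays lay below all wild-type arrays, and the difference was −0.28 (SE 0.09; limma, adjusted p = 0.538). Oasl2, a relative of the oligoadenylate synthetases, stood at 6.25, 6.31 and 6.09 in the knockout and 6.48, 6.51 and 6.62 in the wild type. The groups did not overlap, and the difference was −0.32 (SE 0.09; limma, adjusted p = 0.486). Isg20, an exonuclease that degrades single-stranded RNA, stood at 9.75, 9.75 and 9.53 in the knockout and 9.93, 9.85 and 9.86 in the wild type. The groups did not overlap, with knockout 3 the lowest, and the difference was −0.20 (SE 0.09; limma, adjusted p = 0.69).

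Bst2 and Adar, by contrast, had overlapping groups. Bst2 encodes tetherin, which holds budding virus on the cell surface. Its log2 level was 10.78, 10.51 and 10.63 in the knockout and 10.53, 10.69 and 10.79 in the wild type. The lowest and the highest values came from knockout 2 and wild type 3, and the difference was −0.03 (SE 0.10; limma, adjusted p = 0.969). Adar, whose product edits double-stranded RNA and keeps it from the sensors, stood at 8.33, 8.31 and 8.10 in the knockout and 8.31, 8.49 and 8.32 in the wild type. Knockout 3 was low, knockout 1 lay inside the wild-type range and knockout 2 just below it. The difference was −0.13 (SE 0.09; limma, adjusted p = 0.844). Oasl1, which restrains Irf7 translation in mice, differed by −0.04, and Ifi35 by −0.08.

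The guanylate-binding proteins, large GTPases that attack the vacuoles of pathogens, had differences of opposite sign. Gbp2 differed by −0.19 (SE 0.14) and Gbp3 by 0.26 (SE 0.13), and neither passed the test (limma, adjusted p = 0.842 and 0.754). Gbp genes are close copies, and rows shared between them were not used. Of the ubiquitin and ADP-ribose genes, all 4 measured had differences between −0.06 and −0.02. Parp9 and its partner Dtx3l, which act as a complex that adds ubiquitin, differed by −0.02 and −0.06. Parp14, a neighbouring ADP-ribosyl transferase, differed by −0.03, and Trim25, the ubiquitin ligase that activates RIG-I, by −0.03.

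Levels also differed between arrays of the same genotype. Wild type 2 gave the highest value in 16 of 34 genes (47.1%) and knockout 3 gave it in 0, against 18.3% and 15.2% of all genes. Knockout 3 gave the lowest value in 13 of 34 genes (38.2%, against 23.1% of all genes). Over all rows, knockout 3 also had the lowest median (6.55) and wild type 2 the highest (6.66). Among the 28 genes above background, the median level relative to each gene's own mean was 0.10 on wild type 2 and −0.12 on knockout 3, and between −0.004 and 0.02 on the other arrays. Parp9, Parp14, Gbp2, Ifih1 and Dhx58 were all highest on wild type 2. Parp9, Parp14, Gbp2 and Dhx58 were lowest on knockout 3, and Ifih1 was lowest on wild type 1. Without knockout 3 the median difference of the 34 genes was −0.04, against −0.036 for all genes. Without wild type 2 it was −0.03, against −0.039 for all genes. In each case 4 of the listed genes were lower at an unadjusted p under 0.05, where all genes gave 5.22% and 6.45%.

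**Figure D4:**
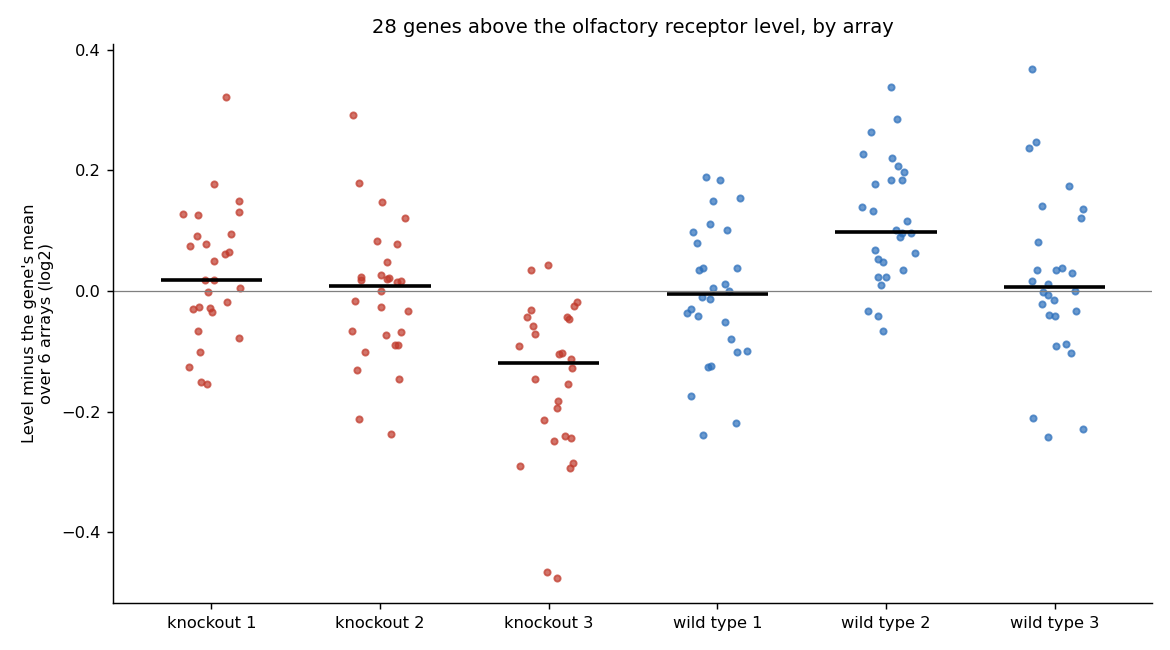
Level of each of the 28 genes above the olfactory receptor level, relative to its own mean over the 6 arrays (y axis, log2), by array, with a bar at the median. Wild type 2 sits highest (median 0.10) and knockout 3 lowest (median −0.12).

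The rest of the pathway was read from 6 lists of 92 genes, of which 70 were measured, and 0 passed the adjusted test. At an unadjusted p under 0.05, 8 were lower in the knockout (11.4%, against 5.44% of all genes) and 1 was higher (1.43%, against 1.78%). All 6 measured interferon genes lay below the olfactory receptor level, among them Ifnb1 at 5.63 ± 0.17 against 5.68 ± 0.51 (SD, n = 3 each). Ifnk, which encodes an interferon of skin, was the 1 higher gene, by 0.25 (SE 0.10; limma, adjusted p = 0.658), while Ifna1 differed by −0.17 and Ifng by −0.08.

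The kinases next to the receptor differed little. Jak1 stood at 10.75 ± 0.04 against 10.85 ± 0.02 (SD, n = 3 each), a difference of −0.09 with no overlap between the groups, and Tyk2 differed by −0.05. Ifnlr1, a chain of the interferon lambda receptor, differed by −0.13 below background, and Ifngr2, a chain of the interferon gamma receptor, by −0.11. In the list of other sensors and relays, Ikbke, a kinase that phosphorylates IRF3 and a reported miR-155 target, was lower at an unadjusted p, by −0.23 (SE 0.09; limma, adjusted p = 0.658). Tlr7, an endosomal sensor of single-stranded RNA, stood at 7.46 ± 0.35 against 7.00 ± 0.28 (SD, n = 3 each), a difference of 0.46 (SE 0.20; limma, adjusted p = 0.701). Mb21d1, which encodes the DNA sensor cGAS, differed by 0.06, the Toll-like receptor adaptor Ticam1 by −0.17, the kinase Irak1 by −0.13 and the myeloid factor Irf8 by −0.02. Among 12 measured brakes and nucleases, 0 were past an unadjusted p of 0.05 (0%, against 5.44% lower and 1.78% higher among all genes). Socs1, a reported miR-155 target that blocks JAK kinases, differed by −0.19 (SE 0.10; limma, adjusted p = 0.759), Socs3 by −0.26 and Irf2bp1 by −0.09.

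The genes of MHC class I antigen presentation, which interferon induces in most cells, showed the highest share of lower values among the 6 lists. Of 7 measured genes, 4 were lower at an unadjusted p under 0.05 (57.1%, against 5.44% of all genes), and 5 had knockout arrays all below wild-type arrays (71.4%, against 10.4%). The median difference was −0.18. Tap1, a chain of the pump that brings peptides into the endoplasmic reticulum, had log2 levels of 9.35, 9.55 and 9.32 in the knockout and 9.70, 9.69 and 9.78 in the wild type, a difference of −0.31 (SE 0.09; limma, adjusted p = 0.486). Its partner Tap2 differed by −0.20 (SE 0.08; limma, adjusted p = 0.656), and Tapbp, which tethers class I molecules to the pump, by −0.19 (SE 0.07; limma, adjusted p = 0.596). Psmb9, a subunit of the immunoproteasome named here after its value was seen, differed by −0.18 (SE 0.08; limma, adjusted p = 0.691). B2m, the light chain of class I, differed by −0.06, and Psmb8 and Psmb10 by −0.15 and 0.07; these 3 were also named after their values were seen. None of the 7 passed the test, and the list was not tested as a set.

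Among 25 measured further interferon-induced genes the median was −0.10, with 20 below 0 (80%, against 61% of all genes). At an unadjusted p under 0.05, 3 were lower (12%, against 5.44% of all genes). Lgals3bp, a secreted glycoprotein, stood at 11.36, 11.48 and 11.43 in the knockout and 11.71, 11.67 and 11.79 in the wild type. The groups were 0.19 apart at the closest pair, and the difference was −0.30 (SE 0.07; limma, adjusted p = 0.439). Ifi30, a lysosomal reductase of antigen processing, differed by −0.30 (SE 0.09; limma, adjusted p = 0.538). Slfn5 differed by −0.19 (SE 0.08; limma, adjusted p = 0.655), with both groups below background.

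**Figure D5:**
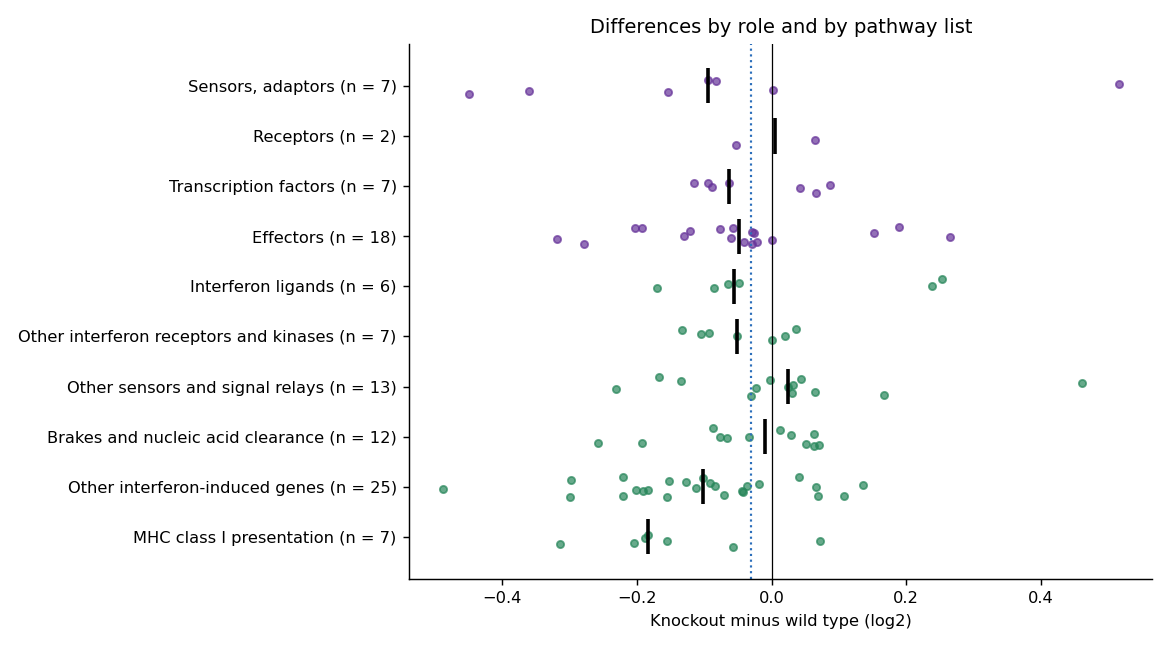
Knockout minus wild-type difference (x axis, log2) of the measured genes by role (purple) and of the 6 further pathway lists (green), with a bar at each median and a dotted line at the median of all genes (−0.03). The MHC class I list has its median at −0.18 and the transcription factors theirs at −0.06.

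Macrophages express many of these genes, so their markers are given beside the result. Of 10 measured macrophage and monocyte markers, 1 was lower (10%, against 5.44% of all genes) and 1 higher (10%, against 1.78%) at an unadjusted p under 0.05, and all 10 had means above background. Adgre1 (F4/80) differed by −0.82 (SE 0.10; limma, adjusted p = 0.086), Itgam by −0.28 and Ccr2 by 0.25. The summed linear level of the 10 ran from 7519 to 9717 in the knockout and from 9054 to 9820 in the wild type. Knockout 3 was lowest for these markers and for the sensing genes, and also over all genes tested (5083750). Wild type 2 was highest for the sensing genes (2824) and also over all genes tested (5498630). For these markers it was not the highest (9590, against 9820 on wild type 1). Of 6 measured markers of plasmacytoid dendritic cells, the main makers of interferon, 6 lay above 0 (0% below it, against 61% of all genes). Of these, Ccr9 and Pacsin1 lay below background. The summed level of the 6 ran from 943 to 1090 in the knockout and from 835 to 903 in the wild type. The brightest rows, Tcf4 (mean log2 level 8.67) and Cox6a2 (8.14), weigh most in that sum. Siglech and Ly6d, both named after their values were seen, lay just above background and differed by 0.04 and 0.008. Tcf4 differed by 0.22 (SE 0.09; limma, adjusted p = 0.665), Cox6a2 by 0.24 and Ccr9 by 0.30. Without knockout 3 these became 0.31, 0.0084 and 0.075, so that array carried the last 2. The part of these cells in the differences was not tested, and in such bulk cultures fewer cells of a type and less RNA per cell cannot be told apart.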

How the data were processed

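Bulk RNA of 6 samples (3 knockout, 3 wild type, grouped by title) was hybridised to whole-transcript Affymetrix arrays, which the labels' protocols name. The authors deposited log2 values that, per the submitters' processing notes, come from RMA in Affymetrix Expression Console. Version and settings: not given in the sources used here. That method makes the arrays' distributions alike, which hides shifts in total RNA and can shrink small differences. That the unit is log2 follows from the range, 0.90 to 13.74. Depth does not apply to arrays; their number limits the precision.

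The table has 23332 rows: 14996 with a single gene symbol, 1019 with several and 7317 without a name here. Per gene the row with the highest mean was kept, 14860 in all, with no filter on low values. Probes differ in brightness, so levels were not compared between genes. Knockout and wild type were compared with limma 3.58.1 (R 4.3.3; lmFit, eBayes), two-sided, with Benjamini-Hochberg adjusted p-values over all genes and a threshold of 0.05. With 3 against 3, exact permutation p-values stop at 0.1. The fit and the motif search were tested on simulated data. Members and lists were chosen with earlier results of these data known; lists are described by counts and medians. Every measured member is named. Values on all arrays are given for a fixed set of sensors, receptors, factors and effectors and for members at an unadjusted p under 0.05, and other lists are represented by set pathway genes and up to 3 genes with the smallest p. Alternatives were 2 rescalings, 2 filters on level, mean rows, another variance model, array weights, a covariate, other motifs and leaving out each array; 3 markers without knockout 3 were added after seeing the data. Figures used Python 3.11.15 and matplotlib 3.10.9.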

Additional observations from a re-analysis of the deposited data

How the results depend on the processing

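Under all 14 alternatives 0 members passed the adjusted test. The median difference of all measured members stayed below 0, between −0.09 and −0.03. That of all genes stayed below 0 as well, between −0.039 and −0.019. Of 458 values of single members under these alternatives, 428 kept their sign, and 30, from 13 members, changed it at an unadjusted p of 0.05 or more. Genes lower at an unadjusted p under 0.05 numbered 5 with all arrays, 3 among genes above the median level (fewer genes tested) and 3 to 4 with 1 array left out. The shares of all genes tested were 5.44%, 7.82% and 3.63% to 6.45%, in that order. Genes higher numbered 0, against 1 after median centring, 1 after quantile normalisation, 1 with the first principal component as a covariate, 2 with array weights and 0 to 2 with 1 array left out. Of all genes tested, 1.78%, 2.17%, 2.25%, 3.19%, 4.27% and 1.33% to 3.49% were higher, in that order. Genes without overlap numbered 6 lower and 0 higher, against 6 to 9 lower and 0 to 4 higher with 1 array left out, where fewer samples make such gaps easier. The lower share of all genes rose likewise, from 10.4% to between 14.2% and 21.3%. The higher share was 2.88% with all arrays and was not counted with 1 left out, so the 0 to 4 higher genes are not read as a result. The median of the transcription factors was −0.06, against −0.0105 among genes above the median level. That filter (median level 7.03) dropped Irf7 (mean 6.12, difference −0.11) and left the differences of the other factors unchanged. The median was 0.0322 with array weights and −0.0682 to 0.0617 with 1 array left out, and the cause of these shifts was not tested. The median of the effectors was −0.05 and ran from −0.105 to −0.0432 with 1 array left out. The letters GAAANGAA, which set the half-sites closer together, occurred in 8 of 33 promoters and AAANNGAAA in 19, against 18. No paired analysis was possible because the wild-type titles all carry the same number. Background limits the genes below the olfactory receptor level, 6 of 34, whose differences say little about transcripts.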

Other observations

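Markers of other cells that the cultures could hold gave these values, and 0 of these genes passed the adjusted test. Of 11 progenitor markers, Mpo, the neutrophil peroxidase, differed by 0.24, Cd34 by −0.16 and Flt3 by 0.21. Of 8 measured neutrophil markers, 6 lay above 0 (25% below it, against 61% of all genes). The calcium-binding protein gene S100a9 differed by 0.28, the collagenase gene Mmp8 by 0.40 and the gelatinase gene Mmp9 by −0.22. Of 7 mast cell and basophil markers, Fcer1a differed by 0.98, Prss34 by −0.47 and Cma1 by 0.46. T and NK cell markers were below 0 in 7 of 7 (100%, against 61% of all genes), with 5 under background, and Thy1 differed by −0.41. Of 4 measured B cell markers, Cd79b differed by 0.33, Pax5 by −0.08 and Ms4a1, below background, by 0.22. Of 6 conventional dendritic cell markers, Flt3 had the smallest p and 3 lay below background. Of 7 stromal and endothelial markers, Pdgfrb differed by −0.34, Pecam1 by −0.36 and Cxcl12 by −0.06. Of the 7, 3 lay below background: Cxcl12, Cdh5 and Kdr. Cdh5 and Kdr differed by 0.007 and 0.01, and Col1a1 and Col1a2 by −0.07 and −0.03. These last 4 were named after their values were seen.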
